A study of Drosophila melanogaster with 16 samples.

Results

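Chromosome 4 (chr4) of Drosophila melanogaster was followed through H3 acetylation and Hi-C contacts in S2 cells, a macrophage-like line derived from late embryos. Its members are all bins that the dm3 genome build places on chr4, chosen by position alone: 1351 of the 168729 1-kb bins of the ChIP-seq and input files, and 68 of the 6023 20-kb bins of the Hi-C maps. Lam-KD cells had taken up double-stranded RNA (dsRNA) that targets lamin Dm0, and control cells of the same line dsRNA that matches bacterial lacZ, over 5 days by the sample records (the study's methods give a shorter treatment). Each condition has 2 ChIP-seq libraries made with antibodies to pan-acetylated histone H3, 2 input libraries and 2 Hi-C maps made with HindIII, from separate biological replicates by the study's methods. The knock-down acts on a whole culture by RNA interference, and its extent was not checked here, because the lamin Dm0 gene could not be looked up by its identifier in the RNA-seq files. The study itself followed lamin Dm0 protein in Lam-KD and control S2 cells by Western blot, with quantified bands.

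Chr4 is the smallest chromosome of the fly, often called the dot chromosome. Most of its sequenced part carries marks of heterochromatin, HP1a and methylated H3 lysine 9, and is rich in repeats, yet it bears genes that are transcribed, and the protein POF binds it. Acetylation of H3 is a mark of open, active chromatin. The regions around the centromeres of all fly chromosomes tend to gather in the nucleus in a chromocentre, and Hi-C, which ligates DNA ends that lie close together, can record such gatherings as contacts between chromosomes. The sequence of chr4 in dm3 begins near the centromere, as do 2R and 3R, whereas 2L, 3L and X end near it.

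The ChIP libraries hold 30005502 and 30004808 reads in Lam-KD cells, against 13093678 and 13100860 reads in control cells. These totals are sums over the 1-kb bins of the files and are larger than the read numbers in the study's methods, a mismatch that was not resolved. Depth in the files differs between the conditions and cannot be told apart from them. Of the ChIP reads, 138949 and 185215 reads in Lam-KD cells, and 63237 and 59051 reads in control cells, fall on chr4. The inputs hold between 1997575 and 3512310 reads, of which 18006 to 31881 fall on chr4. In Lam-KD replicate 2 the ChIP signal stands apart: the mitochondrial genome, which has no histones, takes 0.0165% of its reads, against 0.00363% in Lam-KD replicate 1 and 0.00777% and 0.00434% in the control libraries. Results on acetylation are therefore given with and without this library. The Hi-C maps sum to 19238039 and 20679811 corrected contacts in Lam-KD cells and to 17532453 and 18504925 in control cells, and were scaled to a common sum before any comparison. Precision of single bins is limited by these depths, and with 2 samples against 2 an exact permutation test cannot give a two-sided p under 0.333.

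Chr4 was poor in H3 acetylation in all 4 libraries. The log2 of its share of ChIP reads over its share of input reads was -0.96 and -0.56 in Lam-KD cells and -0.81 and -0.9999 in control cells. On the 5 large arms the same value lay between -0.06 on 2L and 0.21 on X. Chr4 thus stood below every large arm in each of the 4 libraries, at 0.512 and 0.680 times the genome-wide level in Lam-KD cells and at 0.570 and 0.500 times in control cells. It lay among the scaffolds that dm3 sets aside as heterochromatin: 3RHet had -1.07 and -0.61 in Lam-KD cells and -0.88 and -1.16 in control cells, and 2LHet had -0.67 and -0.40 in Lam-KD cells and -0.51 and -0.63 in control cells. At 20 kb, the median bin of chr4 was above only 1.22% and 2.78% of the 5909 bins of the large arms in Lam-KD cells, and 4.30% and 2.67% of them in control cells. Input coverage per kb of chr4 was 0.842 and 0.840 times that of the large arms in Lam-KD cells and 0.784 and 0.836 times in control cells, and is divided out of these ratios.

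**Figure D1:**
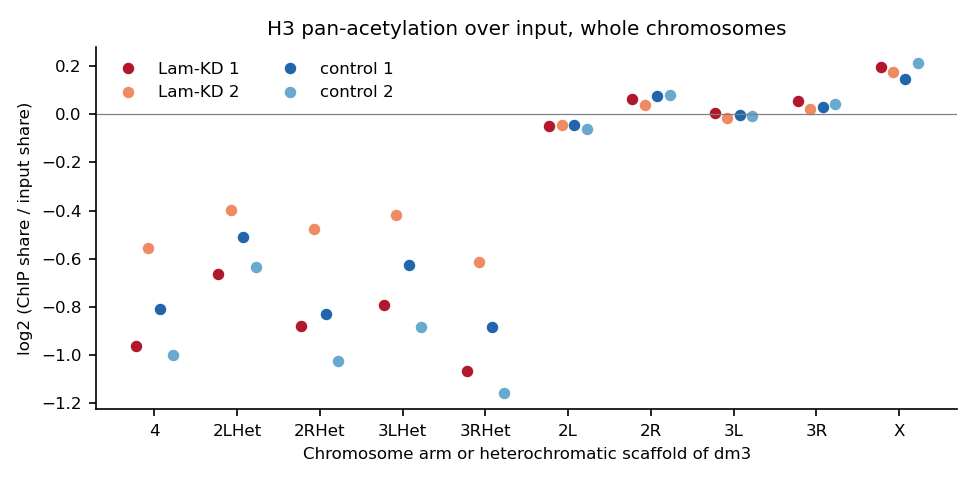
Log2 of the share of H3 pan-acetylation ChIP reads over the share of input reads (vertical axis) for chr4, 4 heterochromatic scaffolds and the 5 large arms of dm3 (horizontal axis), 1 point per library, Lam-KD in red tones and control in blue tones. Chr4 sits between -0.9999 and -0.56, with the heterochromatic scaffolds, whereas the large arms sit between -0.06 and 0.21, and Lam-KD replicate 2 is the highest library on chr4 and on each of the 4 scaffolds.

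Acetylation was uneven along the chromosome. Of the 68 bins of 20 kb, 62 had at least 20 input reads in every library, and they cover chr4:60001-1300000. Their log2 values ran from -2.21 to 0.05 and from -1.52 to 0.23 in Lam-KD cells, and from -2.39 to 0.53 and from -2.82 to 0.27 in control cells. Only 2 and 3 bins exceeded the genome-wide level in Lam-KD cells, and 3 and 4 in control cells. The profile was shared between libraries, with a Spearman's rho over the 62 bins of 0.921 between the Lam-KD libraries, 0.954 between the control libraries and 0.915 to 0.945 between conditions. These coefficients describe neighbouring bins of the same libraries, which are not independent.

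The most acetylated bin in control cells was chr4:80001-100000, with log2 values of -0.20 and 0.16 in Lam-KD cells against 0.53 and 0.24 in control cells. The next were chr4:680001-700000, with 0.05 and 0.23 in Lam-KD cells against 0.47 and 0.27 in control cells, and chr4:920001-940000, with 0.04 and 0.20 in Lam-KD cells against 0.15 and 0.17 in control cells. The first of these borders directly on the second lowest bin of the chromosome, chr4:100001-120000, with -1.98 and -1.52 in Lam-KD cells against -2.01 and -2.45 in control cells. The lowest bin was chr4:340001-360000, with -2.21 and -1.51 in Lam-KD cells against -2.39 and -2.82 in control cells, and the third lowest chr4:120001-140000, with -1.62 and -1.09 in Lam-KD cells against -1.75 and -2.0042 in control cells. In all 3 low bins Lam-KD replicate 2 was the highest library. That library lay above both control libraries in 57 of the 62 bins. The high and low bins were picked on the control libraries. A lower value of Lam-KD cells in the high bins, and a higher one in the low bins, is therefore partly built into the choice. Averaged over larger stretches the profile was flat: the part nearest the centromere (chr4:60001-480000) had -1.01 and -0.58 in Lam-KD cells and -0.83 and -1.02 in control cells, the middle (chr4:480001-900000) -0.87 and -0.53 in Lam-KD cells and -0.76 and -0.95 in control cells, and the part nearest the telomere (chr4:900001-1300000) -1.0002 and -0.56 in Lam-KD cells and -0.84 and -1.02 in control cells.

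**Figure D2:**
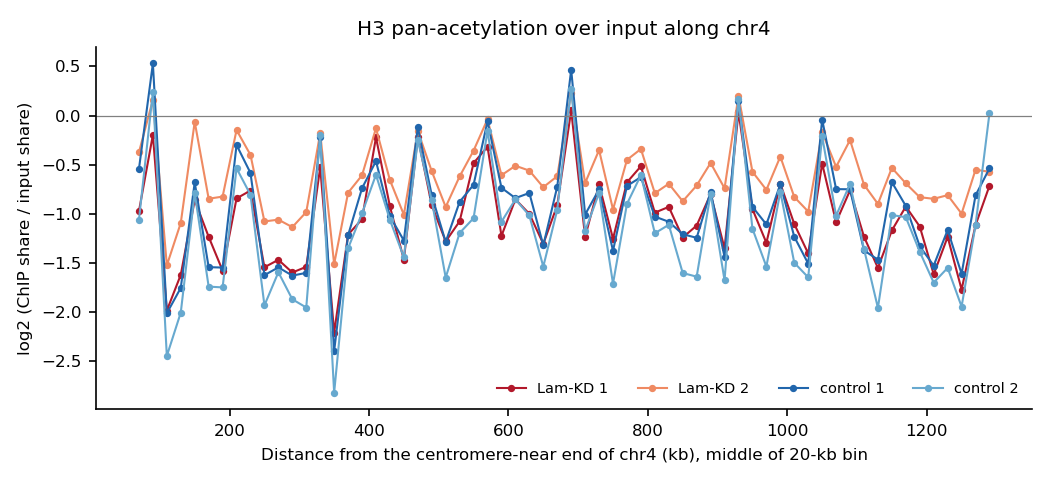
Log2 of ChIP share over input share (vertical axis) in each 20-kb bin of chr4 with at least 20 input reads, against the distance of its middle from the centromere-near end (horizontal axis, kb), 1 line per library. The 4 lines share their peaks and troughs, and the line of Lam-KD replicate 2 runs above the others over most of the chromosome, its lowest bin at -1.52 against -2.21 in Lam-KD replicate 1.

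High acetylation on chr4 lay, in the control libraries, mostly in single 1-kb bins. A 1-kb bin was taken as high where the log2 value reached 1 in both control libraries, a threshold set after the values were seen. On chr4 14 of 1133 usable bins (1.24%) were high, against 3.47% to 4.35% on the 4 large autosomal arms and 7.62% on X. They formed 13 islands, 12 of them of 1 bin, with a median of 91 kb between neighbours. The mean island was 1.08 kb long, against 1.47 to 1.70 kb on the large arms, where runs of high bins were short too. Input is thin in some islands, with 14 and 6 reads in Lam-KD cells and 6 and 10 in control cells at chr4:692001-693000. These 14 bins held 8.52% and 6.71% of the ChIP reads of chr4 in Lam-KD cells, against 11.8% and 12.5% in control cells, and 2.11% and 2.07% of the input reads in Lam-KD cells, against 2.04% and 1.89% in control cells. Since the bins were picked on the control libraries, a lower share in Lam-KD cells is partly built into the choice and is given as a description. High bins of the large arms, picked in the same way, also held less in Lam-KD cells, for example 14.2% and 13.3% in Lam-KD cells against 19.3% and 19.9% in control cells on 2L. The strongest 1-kb bin of the genome reached 2130 reads in each Lam-KD library and 2063 and 2060 in the control libraries, which are less deep. The part of depth and of the removal of duplicates in the lower shares was not tested. Outside the 14 bins chr4 had -1.06 and -0.63 in Lam-KD cells and -0.96 and -1.17 in control cells.

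Over the whole chromosome the 2 conditions overlapped. The mean log2 value was -0.76 ± 0.29 in Lam-KD cells and -0.91 ± 0.13 in control cells (SD, n = 2 each), a difference of 0.14 with an exact two-sided permutation p of 0.667. Lam-KD replicate 1 lay 0.06 below the control mean and Lam-KD replicate 2 lay 0.35 above it. Without Lam-KD replicate 2 the difference was therefore -0.06, and without Lam-KD replicate 1 it was 0.35. On the heterochromatic scaffolds 2LHet, 2RHet, 3LHet and 3RHet, Lam-KD replicate 2 lay 0.17, 0.45, 0.34 and 0.41 above the control mean. Lam-KD replicate 1 differed there by -0.09, 0.05, -0.04 and -0.05. The part of the weaker enrichment of Lam-KD replicate 2 in the values of chr4 was not tested. At 20 kb, both Lam-KD libraries lay above both control libraries in 27 of the 62 bins of chr4 (43.5%), against 51.4% of all bins of the 6 arms, and below both in 3 bins (4.84%), against 13.2% of all bins. Neither share exceeded its background.

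Few single 1-kb bins of chr4 were called as changed. The quasi-likelihood test of edgeR tested 1161 bins of chr4 among 122975 in all, with the total of each library as its size. At a Benjamini-Hochberg adjusted p under 0.05 it called 5 of them, 4 lower and 1 higher in Lam-KD cells (0.431% of those tested), against 1.72% called over all bins. At an unadjusted p under 0.05 the balance on chr4 was the other way, with 236 bins higher and 21 lower. Such unadjusted counts, here and below, were not made over all bins, so they have no background to be read against. Downward calls made up 1.68% of all bins and upward calls 0.0358%. The median log2 difference was 0.41 on chr4 and 0.24 over all bins, and relative to all bins that of chr4 was higher. With TMM factors, which bring the median of all bins to 0.02, the median of chr4 was 0.19 and 18 of its bins (1.55%) were called, all of them lower, against 4.29% of all bins. The balance on chr4 at an unadjusted p under 0.05 was then 64 bins higher and 42 lower in edgeR. The height of chr4 over all bins also rested on Lam-KD replicate 2: without it the median was 0.14 on chr4 and 0.21 over all bins, and 0 bins of chr4 were called, with 57 higher and 28 lower at an unadjusted p under 0.05. Without any other single library edgeR likewise called 0 bins, on chr4 and over all bins. With 20-kb bins edgeR called 9 of 66 on chr4, 8 of them higher in Lam-KD cells, against 35.6% of all 20-kb bins called and 29.4% called higher.

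The bin with the most ChIP reads on the chromosome was also the one that fell most among the called bins. Bin chr4:87001-88000 held 1780 and 1768 reads in Lam-KD cells and 1499 and 1532 in control cells, or 59.3 and 58.9 CPM (counts scaled to the library total) in Lam-KD cells against 114 and 117 CPM in control cells, a log2 difference of -0.97 with an adjusted p of 0.000353 in edgeR. The highest 1-kb bin of the whole genome held 2130 reads in each Lam-KD library, against 2063 and 2060 in control libraries, whose totals are lower. The part of depth and of the removal of duplicates in the fall of chr4:87001-88000 was not tested. With all ChIP libraries thinned to the total of the smallest, 6 bins of chr4 (0.532%) were called, against 1.68% of all bins. The thinning drew from counts whose duplicates were already removed, so it cannot decide the part of that removal. The other 3 that fell were chr4:214001-215000, with 18.2 and 22.3 CPM in Lam-KD cells against 31.5 and 32.8 in control cells (log2 difference -0.67), chr4:334001-335000, with 33.1 and 32.9 CPM in Lam-KD cells against 49.9 and 48.2 CPM in control cells (-0.57), and chr4:1051001-1052000, with 36.0 and 38.9 CPM in Lam-KD cells against 54.7 and 56.8 CPM in control cells (-0.57). The single bin that rose was chr4:238001-239000, with 6.23 and 7.23 CPM in Lam-KD cells against 3.82 and 3.97 in control cells, a log2 difference of 0.79 with an adjusted p of 0.0463 in edgeR. In each of these 5 bins the 2 conditions did not overlap. When the inputs were entered beside the ChIP libraries in the edgeR model, 0 bins of chr4 were called, against 0.261% of all bins. The lowest adjusted p on chr4 in this edgeR model was 0.0860. At an unadjusted p under 0.05, 122 bins of chr4 were higher and 12 lower, with no count over all bins.

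Within chr4 contacts were dense. Of its 68 bins 62 held contacts, and 3 bins at each end held none. A bin of chr4 kept on average 80.3% and 80.9% of its corrected contacts within the chromosome in Lam-KD cells, and 79.5% and 80.4% in control cells. These shares were lower than those of the large arms, which ran from 85.0% to 89.6%, but an arm is many times longer. Stretches of the large arms with as many bins as chr4 kept a median of 55.1% and 55.02% of their contacts inside in Lam-KD cells and 53.0% and 53.7% in control cells, and 0 of 84 such stretches exceeded chr4 in any of the 4 maps. A stretch of an arm has neighbours on both sides, whereas chr4 ends, and the correction gives every bin the same sum of contacts, so a bin with fewer partners nearby has larger values with those it has.

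At matched distances, contacts within chr4 exceeded those within the large arms. At 40 kb the mean corrected contact was 304 and 304 on chr4 against 217 and 216 on the large arms in Lam-KD maps, and 322 and 324 on chr4 against 218 and 215 on the large arms in control maps. At 200 kb it was 41.3 and 39.98 on chr4 against 28.7 and 28.6 on the arms in Lam-KD maps, and 35.4 and 36.6 on chr4 against 26.6 and 27.1 on the arms in control maps. The ratio of chr4 to the arms stayed between 1.25 and 1.54 from 40 to 400 kb and then widened. At 800 kb it was 2.54 and 2.67 in Lam-KD maps and 2.69 and 2.70 in control maps, and at 1100 kb, where 7 pairs of bins remain, 6.31 and 5.57 in Lam-KD maps and 6.14 and 6.99 in control maps. On the arms contacts kept falling with distance, while on chr4 they changed little between 600 kb, with 8.97 and 10.2 in Lam-KD maps and 11.02 and 9.72 in control maps, and 1000 kb, with 8.23 and 9.68 in Lam-KD maps and 10.9 and 10.4 in control maps. They were higher at 1100 kb, with 17.8 and 15.5 in Lam-KD maps and 18.1 and 20.8 in control maps. At each of 11 distances chr4 exceeded the mean of the arms in 4 of 4 maps, with an exact sign-flip permutation p of 0.125, the smallest that 4 maps allow.

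The far contacts joined the 2 ends of the chromosome. Between the first 100 kb, of which only the last 40 kb hold contacts, and the block of 100 kb that holds the last bins, the mean contact was 34.8 and 30.8 in Lam-KD maps and 33.1 and 37.8 in control maps. In each of the 4 maps this exceeded the contact of the first block with the 8 blocks that start at 400 to 1100 kb, for example 13.6 and 14.3 with the block that starts at 700 kb in Lam-KD maps and 14.4 and 17.6 in control maps. Over the parts used above, the part nearest the centromere met the part nearest the telomere 2.65 and 2.69 times as often as the large arms' mean at the same distances in Lam-KD maps, and 2.94 and 2.95 times in control maps. Neighbouring parts had smaller ratios, 1.27 to 1.38 in Lam-KD maps and 1.34 to 1.45 in control maps.

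No pair of 100-kb blocks of chr4 passed the test for a change in contacts. Over all pairs of blocks of the same arm, limma called 0 of 16272 (0%) at an adjusted p under 0.05, and 0 of the 90 of chr4, whose lowest adjusted p was 0.232. At an unadjusted p under 0.05, limma gave 25 pairs of chr4, 14 higher and 11 lower in Lam-KD maps, against 12.3% of all pairs. This balance went with the scaling: it was 19 higher and 2 lower in the maps as deposited, and 2 higher and 5 lower where each contact was divided by the mean at its distance. Of the 90 pairs, 23 (25.6%) were higher and 31 (34.4%) lower in both Lam-KD maps than in both control maps, against 23.1% and 20.8% of all pairs. Their direction differed with distance. Of the 12 pairs at 0 blocks apart, within 1 block, 8 were lower in both Lam-KD maps than in both control maps and 1 was higher. Their median log2 difference was -0.07, against 0.01 for the large arms, of whose pairs 20.3% were lower and 30.1% higher in the same sense. Of the 11 pairs that lie 2 blocks apart, 10 were higher in both Lam-KD maps than in both control maps, with a median log2 difference of 0.16 against 0.11 for the large arms, of whose pairs at this distance 61.5% were higher in the same sense. The blocks that start at 0 and 200 kb had 64.6 and 63.0 in Lam-KD maps against 50.5 and 50.5 in control maps, a log2 difference of 0.33 with an adjusted p of 0.232 in limma, the lowest p among the 90.

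Most far pairs were lower in the Lam-KD maps, though the farthest pair overlapped. Of the 21 pairs that lie 7 or more blocks apart, 13 (61.9%) were lower in both Lam-KD maps than in both control maps and 0 were higher, against 27.1% lower and 10.7% higher among all pairs that far apart. Pairs of chr4 share bins and are not independent, so this share describes the maps and is no test. Their median log2 difference was -0.18, against -0.06 for all such pairs. The lower pairs were 5 of 6 at 7 blocks apart, 4 of 5 at 8 and 2 of 4 at 9. At longer range they were 1 of 3 at 10, 1 of 2 at 11 and 0 of 1 at 12. The largest fall was between the first block and the block that starts at 1000 kb. The mean contact there was 14.1 and 20.0 in Lam-KD maps against 24.9 and 22.4 in control maps, a log2 difference of -0.47 with an adjusted p of 0.285 in limma. Between the first and the last block the log2 difference was -0.11 and the groups overlapped. Between the part nearest the centromere and the part nearest the telomere the mean contact was 10.7 and 10.9 in Lam-KD maps against 12.2 and 12.5 in control maps, a log2 difference of -0.20, and the groups did not overlap, with the smallest exact permutation p that 2 against 2 allow, 0.333. In the maps as deposited, whose sums are larger in Lam-KD cells, this difference shrank to -0.05 and the groups overlapped.

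**Figure D3:**
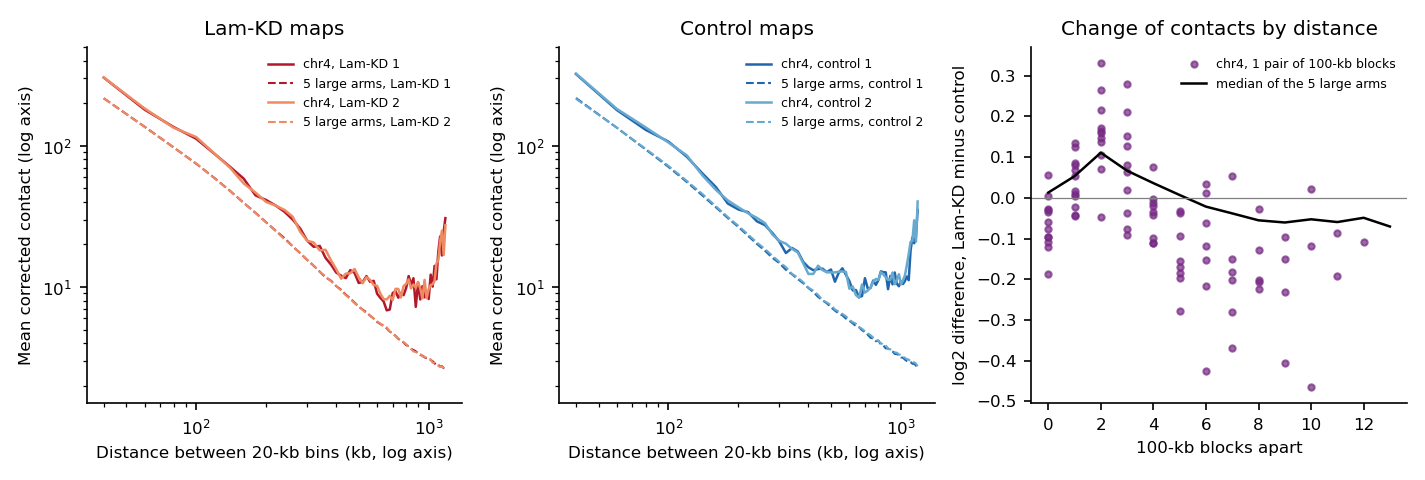
Left and middle, mean corrected contact (log axis) against the distance between 20-kb bins (kb, log axis) on chr4 (solid) and on the 5 large arms (dashed), 1 line per Lam-KD map and per control map. Right, log2 difference of Lam-KD minus control for each of the 90 pairs of 100-kb blocks of chr4 (points) against the number of blocks between them, with the median of the large arms (black line). The solid lines lie above the dashed ones at all distances and turn up at the longest, and the points at 7 or more blocks have a median of -0.18.

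Between chromosomes, chr4 met the centromere-near ends of the other arms more than the rest of them. Contact with the first 1 Mb from the centromere, averaged over pairs of bins of the 5 large arms, was 0.232 and 0.218 in Lam-KD maps, against 0.102 and 0.0994 with all other bins of these arms. In control maps it was 0.233 and 0.224 with the ends, against 0.107 and 0.102 with the rest. The ratio of the ends to the rest was 2.28 and 2.19 in Lam-KD maps and 2.19 and 2.19 in control maps, a mean log2 ratio of 1.15 ± 0.03 (SD, n = 4 maps) with an exact sign-flip permutation p of 0.125. The ends of all 5 arms exceeded the rest of their own arm in 4 of 4 maps. These values are means over sparse maps, in which 7.77% to 8.76% of the pairs of a chr4 bin with a bin of another arm are above 0.

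The 5 arms differed in how much their end met chr4. The end of 2L was highest, with 0.287 and 0.252 in Lam-KD maps and 0.318 and 0.295 in control maps, and exceeded every other end in each of the 4 maps. The end of 2R followed, with 0.222 and 0.231 in Lam-KD maps and 0.232 and 0.227 in control maps, and that of 3R had 0.228 and 0.203 in Lam-KD maps and 0.227 and 0.216 in control maps. The ends of X, with 0.191 and 0.230 in Lam-KD maps and 0.212 and 0.191 in control maps, and of 3L, with 0.221 and 0.176 in Lam-KD maps and 0.169 and 0.180 in control maps, overlapped with each other and with that of 3R, and 2R exceeded 3L in each of the 4 maps. In 2L and 2R the high contact reached through the second Mb, and in 3R it was mostly in the first, with 0.132 and 0.138 in the second Mb in Lam-KD maps and 0.146 and 0.157 in control maps. The second Mb of 3L had 0.217 and 0.192 in Lam-KD maps and 0.243 and 0.233 in control maps. Except in Lam-KD replicate 1 this exceeded the first Mb of 3L, so the order of the ends depends on the 1-Mb cut. Of the 120 blocks of 1 Mb of the large arms, the first Mb of each arm and the second Mb of 2L, 2R and 3L were 8 of the 10 with the highest mean contact with chr4, and the other 2 were the blocks at the telomeres of 2L and X. The block of X is shorter than 1 Mb and ranked 3 and 5 in Lam-KD maps and 3 and 13 in control maps. These means include the thinly covered last bin of chr4, described below, and the ranks were not taken without it.

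**Figure D4:**
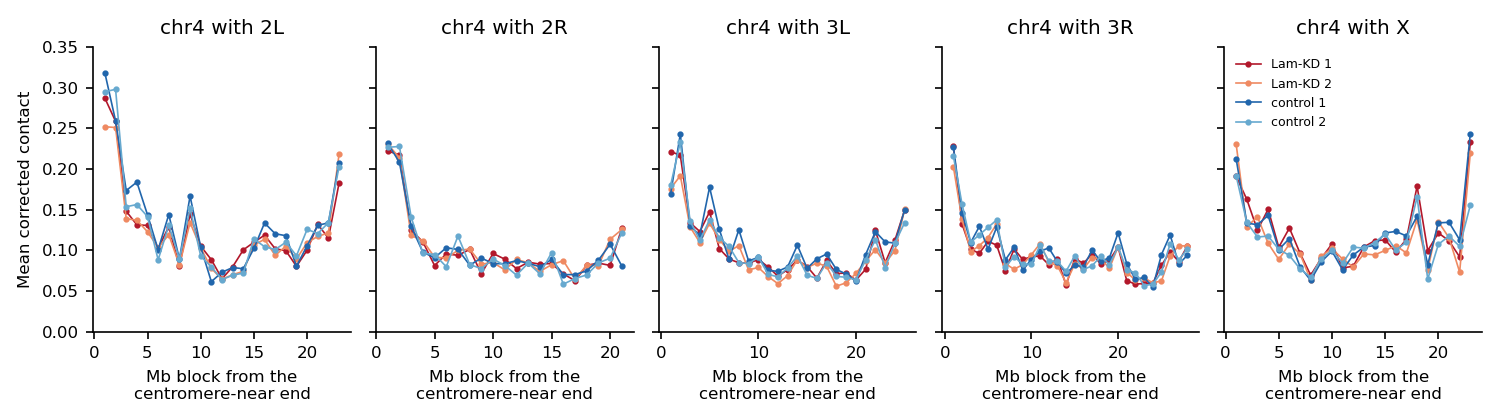
Mean corrected contact of chr4 (vertical axis) with each 1-Mb block of the 5 large arms, numbered from the centromere-near end (horizontal axis), 1 line per map, Lam-KD in red tones and control in blue tones. By the mean of the 4 maps each arm is highest in its first or second block, up to 0.288 in 2L, or, in X, at the block farthest from the centromere. That block of X is shorter than 1 Mb, and the last bin of chr4 is included.

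Seen from the other side, chr4 was among the regions that met centromere-near ends most. Each 1-Mb block was set against the centromere-near ends of the other chromosomes, and of 121 blocks chr4 ranked second in each of the 4 maps, with a mean of 0.227. The first Mb of 3L was highest, with a mean of 0.259, and the first Mb of 2R followed with 0.201. As a ratio to contact with the rest of those chromosomes the mean of chr4 was 2.21 and its rank 5, since it also met the rest more: its contact with the other chromosomes averaged 1.32 and 1.27 times that of the large chromosomes with each other in Lam-KD maps and 1.36 and 1.40 times in control maps.

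Along chr4, both ends met the centromere-near ends of other arms most. Contact exceeded that with the rest of the arms in 59 of the 62 bins in all 4 maps. The 3 bins with the highest contact in control maps were chr4:1280001-1300000, chr4:300001-320000 and the 20-kb bin that starts at chr4:1260001. Since they were picked on the control maps, a lower contact in Lam-KD maps is partly built into the choice. Bin chr4:300001-320000 had 0.297 and 0.417 in Lam-KD maps against 0.540 and 0.422 in control maps, and the bin that starts at chr4:1260001 had 0.525 and 0.584 in Lam-KD maps against 0.398 and 0.563 in control maps. The first bin with contacts, chr4:60001-80000, had 0.708 and 0.383 in Lam-KD maps against 0.347 and 0.540 in control maps, so single bins varied between maps of 1 condition. By blocks of 100 kb, the first had 0.472 and 0.315 in Lam-KD maps and 0.372 and 0.404 in control maps, and the last had 0.417 and 0.396 in Lam-KD maps and 0.378 and 0.435 in control maps. The lowest block in each of the 4 maps was the one that starts at 700 kb, with 0.153 and 0.127 in Lam-KD maps and 0.137 and 0.112 in control maps. Over the 62 bins these contacts had little relation to acetylation, with a Spearman's rho of -0.22 and -0.15 in Lam-KD cells and 0.02 and -0.17 in control cells, between bins of different libraries that share their sequence.

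The last bin with contacts, chr4:1280001-1300000, went against the rest of the chromosome. It had only 4.89% and 4.503% of its contacts within chr4 in Lam-KD maps, and 4.28% and 7.22% in control maps, against medians of 82.9% and 83.5% over bins in Lam-KD maps and 81.9% and 82.6% in control maps. Per pair of bins its contact was highest with the telomere-side 1 Mb of the large arms, with a mean of 2.09 and 2.14 in Lam-KD maps and 2.07 and 1.84 in control maps, against 0.452 and 0.450 with the interior of the arms in Lam-KD maps and 0.457 and 0.440 in control maps. With the telomere-side ends, the other 61 bins of chr4 reached at most 0.292 and 0.285 in Lam-KD maps and 0.357 and 0.300 in control maps. With the centromere-near ends the last bin had 0.409 and 0.460 in Lam-KD maps and 0.409 and 0.650 in control maps, below its contact with the interior in 1 map of each condition. The bin is thinly covered, with 49 and 75 input reads in Lam-KD cells and 59 and 33 in control cells, 0.120 to 0.163 times the median bin of chr4, and its smallest contact above 0 was 1.80 to 2.45, against a median of 0.361 to 0.383 for the other bins. The part of thin coverage and of repeated sequence in this pattern was not tested. Contact of the whole chromosome with telomere-side ends exceeded that with the interior of the arms 1.44 and 1.46 times in Lam-KD maps and 1.34 and 1.39 times in control maps, and without this bin 1.19 and 1.19 times in Lam-KD maps and 1.10 and 1.17 times in control maps. The ratio for the centromere-near ends did not rest on it, with 2.41 and 2.31 in Lam-KD maps and 2.31 and 2.27 in control maps without it.

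**Figure D5:**
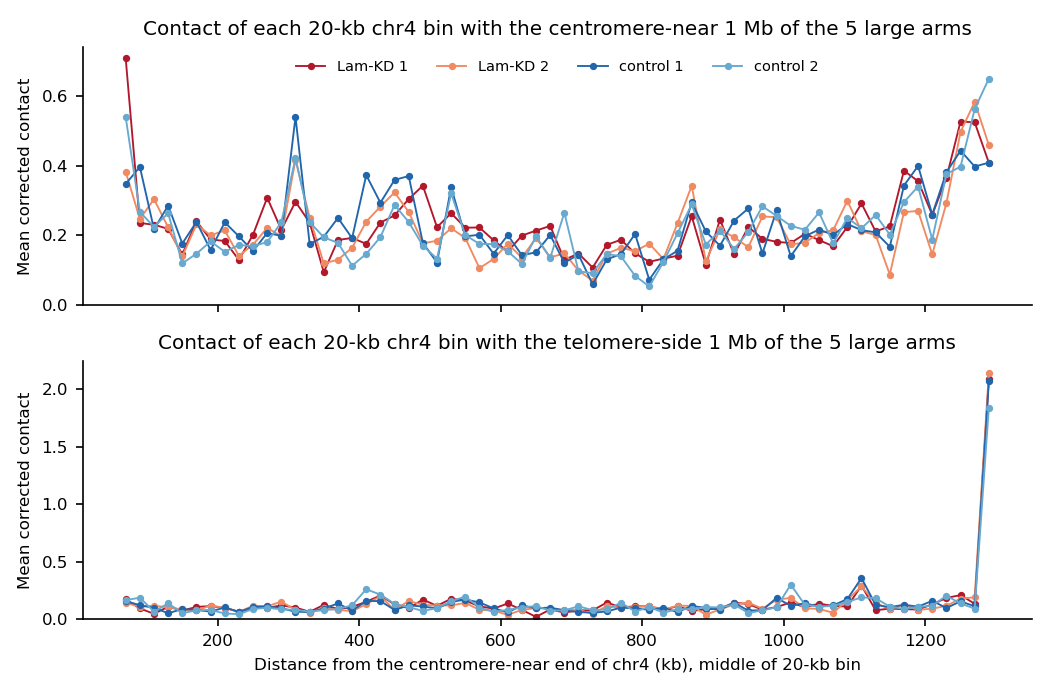
Mean corrected contact (vertical axes) of each 20-kb bin of chr4, placed by the distance of its middle from the centromere-near end (horizontal axis, kb), with the centromere-near 1 Mb (top) and the telomere-side 1 Mb (bottom) of the 5 large arms, 1 line per map. Both ends of chr4 are high in the top panel, and in the bottom panel the last bin alone stands out, at 1.84 to 2.14.

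No change in contacts of chr4 with the centromere-near ends passed the test upon Lam-KD. Over the 5 arms together the log2 difference was -0.02, with overlapping groups and an exact permutation p of 0.667, and with the rest of the arms it was -0.05. Among all pairs of 1-Mb blocks on different arms limma called 0 of 5866 (0%) at an adjusted p under 0.05 and 0 of the 5 pairs of chr4 with a centromere-near end, whose lowest adjusted p was 0.711. At an unadjusted p under 0.05 limma gave 1 of the 5, against 6.78% of all pairs. This was the end of 2L, whose 2 Lam-KD maps lay below both control maps, a log2 difference of -0.18. The other 4 differed by between -0.04 and 0.17 and their groups overlapped. Of all 120 pairs of chr4 with a 1-Mb block, 34 (28.3%) were lower in both Lam-KD maps than in both control maps and 14 (11.7%) were higher, against 12.5% and 23.6% of all pairs. The median log2 difference was -0.04 over these 120 and 0.04 over all pairs, and 0 of them passed the test. At an unadjusted p under 0.05 limma gave 9 of them, 3 higher and 6 lower in Lam-KD maps. Among the 6 were the end of 2L and the second Mb of 3L, with a log2 difference of -0.21 and no overlap.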

How the data were processed

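The authors mapped ChIP-seq and input reads to dm3 with Bowtie2 2.2.1, dropped poorly mapped and duplicate reads with SAMtools, and counted the others in 1-kb bins with bedtools 2.16.2 (deposited as counts), per the submitters' processing notes and the study's methods. Hi-C read pairs were mapped with Bowtie2 2.2.1 and corrected iteratively by the authors. The deposited maps hold, as signal, a corrected contact for every pair of 20-kb bins. In each deposited map all bins with contacts have the same sum, and the diagonal and the next diagonal are 0. RNA-seq counts were not used, because the gene identifiers could not be placed on chr4.

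Acetylation was the log2 of the ChIP share over the input share of the same-numbered library. At 1 kb, 1 read was added to both, and bins needed at least 5 input reads in every input library. Changes in 1-kb bins were tested over all bins with edgeR 4.0.16 on deposited ChIP counts (quasi-likelihood test, edgeR's filter on low counts, library sum without TMM). Hi-C maps were scaled to a common sum. Contacts were tested with limma 3.58.1 (trend) on log2(value + 1) for pairs of 100-kb blocks of 1 arm up to 13 blocks apart, and on log2(value + 0.01) for pairs of 1-Mb blocks on different arms, leaving out blocks with fewer than 10 bins with contacts. All p-values were Benjamini-Hochberg adjusted over all features tested. Both tests were run on simulated data first. DESeq2 1.42.0, R 4.3.3, Python 3.11.15, numpy 2.4.6, scipy 1.17.1, pandas 2.3.3 and matplotlib 3.10.9 were also used.

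The named bins were, by rule, the called 1-kb bins of chr4 with the same direction in all 4 pairs of libraries (up to the 5 largest changes each way), the 3 highest and 3 lowest 20-kb bins by acetylation in control cells, and the 3 20-kb bins with the highest contact with centromere-near ends in control maps. The parts of chr4, the high bins and the lists were chosen with earlier results of these data known. Same-numbered libraries were not paired: the correlation of their deviations from the group means was -0.22 in ChIP and 0.01 in Hi-C. No sequence is printed, because the tables used here hold none for dm3, and genes of chr4 were not placed on these bins.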

Additional observations from a re-analysis of the deposited data

How the results depend on the processing

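The level of chr4 moved only where the median of 1-kb bins replaced the sum over the chromosome, to a mean log2 value of -1.20 over the 4 libraries, against -0.83, and was -0.93 to -0.78 with a library left out. The difference upon Lam-KD turned to -0.059 without Lam-KD replicate 2, and ranged from -0.06 to 0.35 with a library left out. As a replicate block, the mean of the within-number differences, it was 0.14. It was 0.35 as a median of 1-kb bins, and between 0.14 and 0.20 under the other 4 settings. The count of 5 called 1-kb bins on chr4 depended on the processing, and the share of all bins called is given in brackets. It was 18 with TMM factors (4.29%), 25 with the median bin as library size (5.16%) and 25 with DESeq2 (5.66%). It was 1 without a filter on low counts (0.647%) and 9 of 66 with 20-kb bins (35.6%). With the replicate block it was 14 (1.24%), and with the inputs in the model 0 (0.261%). Fits with a library left out are given above. The 18, 25 and 25 bins were all lower in Lam-KD cells, whereas 8 of the 9 and 11 of the 14 were higher, and the cause was not tested. With crossed replicate numbers, chosen after seeing the data, the replicate block gave 260 calls on chr4, 234 of them higher. That was 22.4% of the bins tested on chr4, against 14.9% of all bins (18316 calls). No pair of chr4 was called for cis contacts or for contacts with centromere-near ends under any alternative run, the replicate block included, and the lowest adjusted p in limma was 0.0716, in the maps as deposited. The log2 ratio of centromere-near ends over the rest was 1.08 with ends of 0.5 Mb, 1.10 with 2 Mb, 1.14 in the authors' merged maps and 1.22 without the last bin, chosen after seeing the data, and 1.13 to 1.15 with a map left out. The planned test of RNA from chr4 genes and its alternatives were not run, because the identifiers could not be placed on chr4. Depth limits single bins: the smallest input holds a median of 13 reads per 1-kb bin of chr4.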
